A study of Rattus norvegicus with 6 samples.

Results

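Duct and progenitor epithelium genes of the pancreas were followed across birth in rat islet preparations profiled by RNA sequencing. Of 9 listed genes, taken by exact symbol from a table of 18625 named genes, 8 had a row: the keratin genes Krt7, Krt8, Krt18 and Krt19, the mucin gene Muc1, the osteopontin gene Spp1, and the transcription factor genes Sox9 and Onecut1. Cftr, the apical chloride and bicarbonate channel gene of duct cells, is not analysed here. The fetal group held 3 libraries of rat islets at embryonic day 19 (E19). The postnatal group held 3 libraries that are all titled as 2 weeks old but carry an age of postnatal week 2 (replicate 1), week 3 (replicate 2) or week 4 (replicate 3). The labels name no strain, sex, genotype or treatment for either group and are silent on pooling of animals and on the origin of the replicates. The p-values therefore reflect library-to-library spread alone, and part or all of it may be technical. The comparison asks how expression in islet preparations differs between late fetal life and the weeks after birth. The shares of acinar and endocrine transcripts in these preparations also differed between the groups, as given below.

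Pancreatic ducts carry the enzymes of acinar cells to the gut and add bicarbonate-rich fluid. In the embryo, the epithelial cords that become ducts also hold the progenitors from which endocrine cells arise, and Sox9 and Onecut1 (also called HNF6) are transcription factors of those progenitors that duct cells keep later. Keratins are filament proteins that assemble in pairs of a type I chain (Krt18, Krt19) with a type II chain (Krt7, Krt8). Krt8 and Krt18 are widespread in simple epithelia, acinar cells included, whereas Krt7 and Krt19 mark duct epithelium in the exocrine pancreas and are also made by mesothelium, the cell layer that covers abdominal organs. Muc1 is a membrane mucin of apical surfaces, and Spp1 is a secreted phosphoprotein made by duct cells and by macrophages.

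RefSeq promoter windows of the rat assembly GRCr8, which run from 250 bases before to 50 after an annotated start, were found for 5 of the 9 genes. Those of Krt8, Krt18 and Muc1, which fell, and of Spp1, which did not pass the test, are shown so that the fallers can be set beside a gene that did not fall. They lie at chr7:135010290-135010589 on the minus strand (Krt8), chr7:135035918-135036217 on the plus strand (Krt18), chr2:176933500-176933799 on the plus strand (Muc1) and chr14:5619755-5620054 on the minus strand (Spp1). Krt8 and Krt18 are neighbouring protein-coding genes in that assembly and are read away from each other. Capitals mark matches, on either strand, to any of 7 short motifs.
Krt8: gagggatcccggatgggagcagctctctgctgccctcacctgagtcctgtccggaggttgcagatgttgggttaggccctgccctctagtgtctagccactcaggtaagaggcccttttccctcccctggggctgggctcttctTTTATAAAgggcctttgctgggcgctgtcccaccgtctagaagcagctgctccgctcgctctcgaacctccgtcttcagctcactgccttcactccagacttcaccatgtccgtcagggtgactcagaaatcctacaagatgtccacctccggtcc
Krt18: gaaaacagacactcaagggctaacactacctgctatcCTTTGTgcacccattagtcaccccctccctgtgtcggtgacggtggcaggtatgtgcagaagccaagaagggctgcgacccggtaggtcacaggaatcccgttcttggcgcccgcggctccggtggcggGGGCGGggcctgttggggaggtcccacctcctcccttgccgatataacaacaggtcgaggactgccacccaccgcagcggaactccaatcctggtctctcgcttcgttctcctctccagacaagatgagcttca
Muc1: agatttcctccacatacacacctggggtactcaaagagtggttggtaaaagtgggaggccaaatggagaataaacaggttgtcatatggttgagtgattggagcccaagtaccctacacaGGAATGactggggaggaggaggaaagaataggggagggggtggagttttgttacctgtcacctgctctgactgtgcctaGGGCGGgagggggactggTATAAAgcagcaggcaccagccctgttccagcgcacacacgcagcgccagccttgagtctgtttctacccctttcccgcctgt
Spp1: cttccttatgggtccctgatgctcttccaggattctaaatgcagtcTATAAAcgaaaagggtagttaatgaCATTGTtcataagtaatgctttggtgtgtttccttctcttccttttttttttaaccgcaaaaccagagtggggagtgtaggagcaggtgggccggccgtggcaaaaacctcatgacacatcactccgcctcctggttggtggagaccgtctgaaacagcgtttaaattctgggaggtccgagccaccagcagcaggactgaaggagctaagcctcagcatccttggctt

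The letters ATTGAT were searched as 1 core of ONECUT sites and ATCGAT as the other. For SOX factors the letters were ACAATG in 1 form and ACAAAG in the other. The remaining motifs were GGGCGG for SP and KLF factors, CATTCC for TEAD factors and TATAAA for the TATA box, the last added after the sequences were seen. The letters GTTAAT, planned for HNF1 factors, were not searched, and they lie unmarked in the Spp1 window. Neither ONECUT core was in any of the 5 windows; they occur in 8.06% and 0.896% of the 33469 RefSeq windows of this length. The Krt8 window held TATAAA at position -104 from the annotated start, overlapping the same motif on the other strand. Krt18 held GGGCGG and, on the reverse strand, ACAAAG. Muc1 held TATAAA at position -33, GGGCGG, and CATTCC on the reverse strand. Spp1 held TATAAA at position -204 and, on the reverse strand, ACAATG at -179. Over all windows the shares were 14.2% for TATAAA, 33.1% for GGGCGG, 18.8% for ACAAAG, 13.2% for ACAATG and 14.2% for CATTCC. No searched motif was common to all 3 windows of fallers. A match here is a string of letters, and its absence from a window says nothing about the factor.

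Of the 8 measured genes, 4 fell after birth and none rose; in these 4 the groups did not overlap, as in 70.0% of all genes tested. Krt8, Krt18, Krt19 and Muc1 fell by 0.92 to 1.36 on the log2 scale, whereas Krt7, Spp1, Onecut1 and Sox9 did not pass the test. Gene levels are given as scaled CPM, the CPM of a library size that was adjusted between libraries, and changes as postnatal minus E19 of log2(scaled CPM + 1). A change was called at a Benjamini-Hochberg adjusted p under 0.05 with limma, fitted on all 12926 genes that reached 1 scaled CPM in at least 3 libraries; 63.1% of them were called, 30.0% higher and 33.1% lower. All 8 measured genes passed this filter. The median change of the 8 was -0.59, beside -0.03 over all genes tested.

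The libraries held 26051449 to 37819935 recovered reads. Acinar transcripts took 5.81% to 7.73% of the reads in the fetal and 14.9% to 29.8% in the postnatal libraries (13 of 14 listed markers in the table), and endocrine transcripts 0.246% to 0.656% and 4.13% to 11.2% (10 of 10). All 10 endocrine markers had reads in every library, and acinar markers took more reads than endocrine ones in every library. E19 replicate 2 stood apart in liver transcripts, at a summed level of 7835 against 297 and 377 in E19 replicates 1 and 3, and postnatal replicate 1 in acinar transcripts, at 439663 against 165232 and 150660. Counts below were repeated without these 2 libraries. In bulk RNA, fewer cells of a type and less RNA per cell cannot be told apart.

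**Figure D1:**
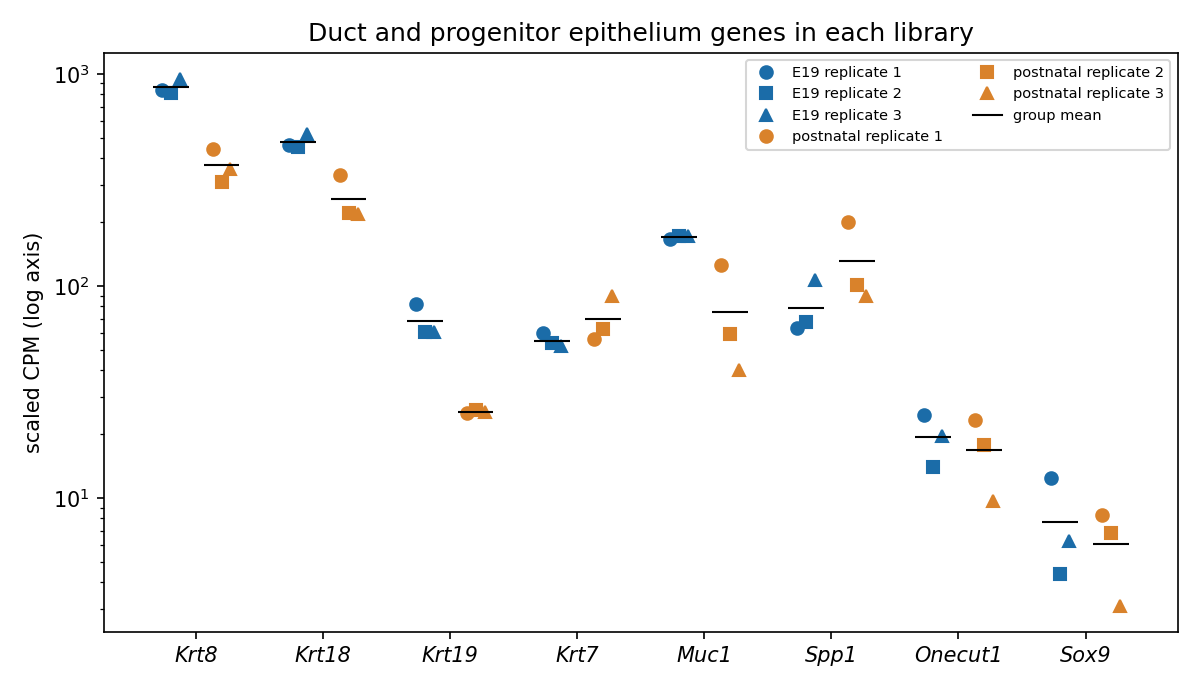
Scaled CPM (log axis) of the 8 measured genes in each library; blue marks are E19, orange marks postnatal, the shape gives the replicate, and black lines are group means. Krt8, Krt18, Krt19 and Muc1 show no overlap between groups, and the other 4 genes do.

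Krt8, the type II keratin of simple epithelium, stood at 835, 815 and 941 scaled CPM in E19 replicates 1, 2 and 3 and at 443, 310 and 355 in postnatal replicates 1, 2 and 3. All postnatal values lay below all fetal ones. The change was -1.24 ± 0.16 (SE; limma adjusted p = 4.69e-04), or 864 ± 67.6 against 369 ± 68.0 (mean ± SD, n = 3 each).

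Its type I partner Krt18 stood at 462, 453 and 521 scaled CPM in the fetal libraries and at 334, 220 and 219 in the postnatal ones. The groups did not overlap. Postnatal replicate 1 was the highest of its group for both partners, but only after the adjustment of library size: as CPM of total reads the postnatal values were 300.1, 319 and 352 for Krt8 and 226, 227 and 217 for Krt18. Krt18 fell by 0.92 ± 0.18 on the log2 scale (limma adjusted p = 0.00302).

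Krt19, the type I keratin of duct cells, stood at 82.5, 60.7 and 60.7 scaled CPM in the fetal libraries and at 25.3, 26.0 and 25.3 in the postnatal ones. The groups did not overlap, and E19 replicate 1 stood above the other fetal libraries. The closeness of the postnatal values holds only after the adjustment of library size: as CPM of total reads they were 17.1, 26.8 and 25.1, lowest in postnatal replicate 1, which had the highest acinar share. That library is also the one labelled week 2, so age and acinar RNA cannot be told apart there. The part of acinar RNA in the Krt19 values was not tested. The fall of 1.36 ± 0.13 on the log2 scale (limma adjusted p = 1.38e-04) was the largest of the 8 genes.

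Krt7, the type II keratin of duct cells, did not follow. It stood at 59.8, 53.5 and 51.9 scaled CPM in the fetal libraries and at 56.3, 62.4 and 89.7 in the postnatal ones, so the groups overlapped at postnatal replicate 1. The change was 0.30 ± 0.17, with a 95% interval of -0.10 to 0.70 (limma adjusted p = 0.157). The change was 0.11 without postnatal replicate 3 and -0.043 when libraries were scaled by total reads. Krt7 was called higher without postnatal replicate 1 (0.44; adjusted p = 0.0448), with the labelled week as a covariate (0.30; adjusted p = 0.0362) and after rescaling without the 20 highest genes (0.54; adjusted p = 0.0496).

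Because a ratio of 2 genes within a library does not move with the scaling between libraries, keratin partners were also compared as ratios. The printed ratios are of plain values. Their log2 differences and p-values used scaled CPM + 1, which can move with the scaling. The genes differ in length, so only the change of a ratio is read, not its size. The Krt7 to Krt8 ratio was 0.0717, 0.0656 and 0.0551 in E19 replicates 1, 2 and 3 and 0.127, 0.201 and 0.253 in postnatal replicates 1, 2 and 3. Every postnatal ratio was above every fetal one, a log2 difference of 1.54 (two-sided exact permutation p = 0.1, the smallest that 3 libraries against 3 allow; 0.22 after adjustment over 11 ratios). The ratio of Krt19 to Krt18, the type I chains, was 0.178, 0.134 and 0.116 before and 0.0757, 0.118 and 0.116 after birth. These overlapped (log2 difference -0.44; exact permutation p = 0.3).

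Summed over both chains of each type, the ratio of type I to type II keratin was 0.609, 0.591 and 0.586 in the fetal libraries and 0.719, 0.661 and 0.549 in the postnatal ones. The groups overlapped (log2 difference 0.10; exact permutation p = 0.4), and the 4 keratins together went from 1465 ± 98.9 to 722 ± 124 scaled CPM. Krt7 was the one of the 4 keratins that was not called lower.

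Muc1, the apical membrane mucin, stood at 166, 172 and 172 scaled CPM in the fetal libraries and at 126, 59.2 and 40.0 in the postnatal ones. The fetal libraries were close together, and the postnatal ones spread 3.14-fold, all below the fetal values. Muc1 fell by 1.34 ± 0.35 on the log2 scale (limma adjusted p = 0.0120), and by 1.79 without postnatal replicate 1. Among the postnatal libraries the order of Muc1 was that of the summed acinar markers, at 439663, 165232 and 150660. That order also follows the labelled weeks 2, 3 and 4, so age and acinar RNA cannot be told apart there. The part of acinar RNA in the Muc1 values was not tested.

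Spp1, encoding osteopontin, stood at 63.0, 67.2 and 106 scaled CPM in the fetal libraries and at 199.9, 101 and 89.9 in the postnatal ones. Postnatal replicate 1 was the highest, and the other postnatal libraries lay below E19 replicate 3. The change of 0.67 ± 0.32 did not pass (95% interval -0.07 to 1.41; limma adjusted p = 0.101) and was 0.31 without postnatal replicate 1. That library has the lowest adjustment factor (0.677). As CPM of total reads, without the adjustment, Spp1 stood at 78.8, 73.4 and 112 in the fetal and 135, 105 and 89.2 in the postnatal libraries. Spp1 was called higher by DESeq2 (0.77; adjusted p = 0.0285), with the labelled week as a covariate (adjusted p = 0.0299) and after rescaling without the 20 highest genes (0.91; adjusted p = 0.0258).

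Macrophage markers, all 12 in the table with reads in every library, summed to 73.6 to 175 scaled CPM before and 119 to 325 after birth. These sums overlapped, and 5 of 12 markers rose, beside 30.0% of all genes called higher. Postnatal replicate 1, with the most Spp1, had the lowest postnatal macrophage sum (119), and postnatal replicate 2, with the highest (325), had 101 scaled CPM of Spp1. Among the postnatal libraries Spp1 had the order of the acinar sums. That order also follows the labelled weeks, so age and acinar RNA cannot be told apart there. The parts of macrophage and of acinar RNA in the Spp1 values were not tested.

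Onecut1, a transcription factor gene of pancreatic progenitors and ducts, stood at 24.5, 13.99 and 19.5 scaled CPM in the fetal libraries and at 23.3, 17.7 and 9.66 in the postnatal ones. The groups overlapped, and the change was -0.23 ± 0.32 (95% interval -0.97 to 0.51; limma adjusted p = 0.546). Without E19 replicate 2 and postnatal replicate 1 together it was called lower (-0.69; adjusted p = 0.0456), and without postnatal replicate 3 its sign turned (0.10).

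Sox9, which maintains the progenitor epithelium, stood at 12.5, 4.38 and 6.26 scaled CPM in the fetal libraries and at 8.30, 6.85 and 3.11 in the postnatal ones, from 91 to 406 reads. E19 replicate 1 was the highest and postnatal replicate 3 the lowest of the 6 libraries for Sox9 and for Onecut1 alike. The Sox9 change was -0.27 ± 0.40 (95% interval -1.20 to 0.66; limma adjusted p = 0.577), an interval that holds falls as large as that of Krt18. It was 0.10 without E19 replicate 1 and 0.08 without postnatal replicate 3.

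**Figure D2:**
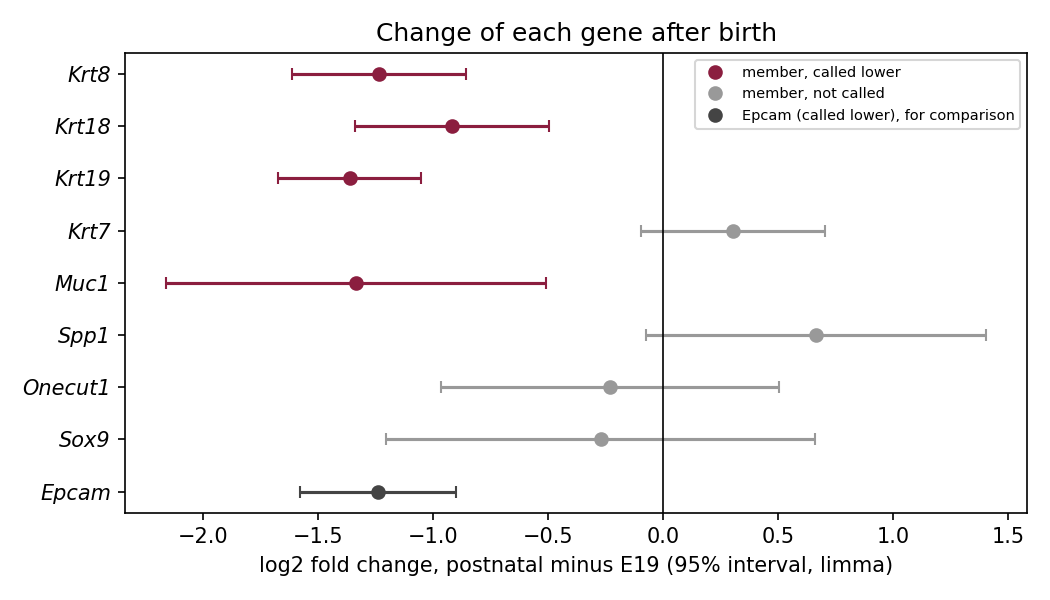
Change of each gene after birth (log2 fold change, postnatal minus E19) with its 95% interval from limma; dark red marks genes called lower, light grey those not called, and dark grey the epithelial gene Epcam. The intervals of Krt8, Krt18, Krt19, Muc1 and Epcam lie below 0, and those of Krt7, Spp1, Onecut1 and Sox9 include it.

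Epcam, an adhesion molecule gene of simple epithelia, served as the within-library yardstick. It stood at 372, 324 and 411 scaled CPM in the fetal and 184, 142 and 142 in the postnatal libraries, and fell by 1.24 ± 0.15 on the log2 scale (limma adjusted p = 2.85e-04). Other genes of simple epithelia fell by less or by more, such as Cdh1 by 0.52 and Cldn6 by 3.01. A ratio to Epcam therefore holds for that gene alone, and ratios to other epithelial genes were not computed. Relative to Epcam, Krt8 changed by 0.00 (exact permutation p = 1), Krt19 by -0.12 (exact permutation p = 0.5) and Muc1 by -0.09 (exact permutation p = 0.9), all with overlapping groups. These 3 genes thus differed from Epcam by less than the spread between libraries. Postnatal Muc1 was 0.682, 0.417 and 0.281 of Epcam, against 0.447, 0.531 and 0.418 before birth.

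With 3 libraries against 3 the exact permutation p cannot fall below 0.1, so no ratio to Epcam could pass at 0.05. Krt7 was 0.161, 0.165 and 0.126 of Epcam in the fetal and 0.306, 0.440 and 0.631 in the postnatal libraries, and Spp1 0.169, 0.207 and 0.257 against 1.09, 0.714 and 0.632. Onecut1 was 0.0658, 0.0431 and 0.0474 of Epcam before and 0.127, 0.125 and 0.0679 after birth. In these 3 genes and in Krt18 (log2 difference 0.32) every postnatal ratio was above every fetal one, with an exact permutation p = 0.1 each, 0.22 after adjustment over 11 ratios. The log2 differences were 1.54 for Krt7, 1.91 for Spp1 and 1.01 for Onecut1. For Sox9 it was 0.97 with overlapping groups (exact permutation p = 0.2).

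**Figure D3:**
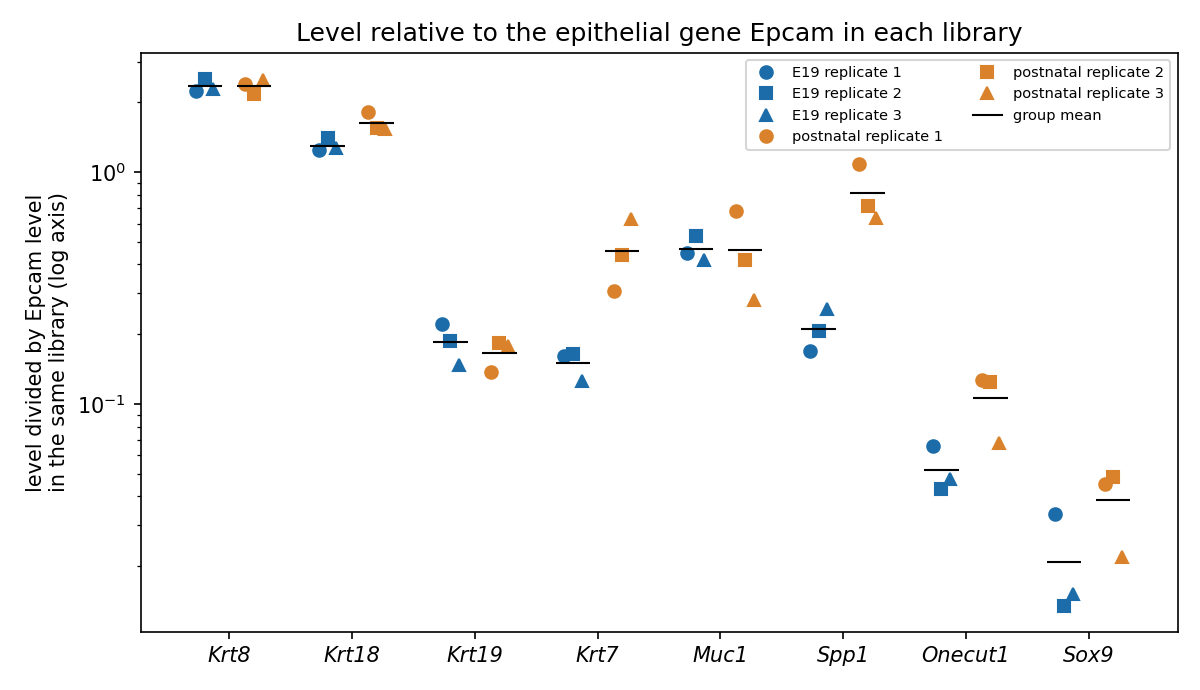
Level of each gene divided by that of Epcam in the same library (log axis); blue marks are E19, orange marks postnatal, the shape gives the replicate, and black lines are group means. Krt8, Krt19, Muc1 and Sox9 overlap between groups, whereas Krt18, Krt7, Spp1 and Onecut1 lie higher in all 3 postnatal libraries.

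Related genes were read from the same fit. Of 24 tested genes shared by simple epithelia, 22 fell and none rose, with a median change of -1.14, beside a background of 33.1% called lower. Cldn6, a claudin gene of embryonic epithelium, fell from 66.5 ± 8.60 to 7.46 ± 1.84 scaled CPM (-3.01 ± 0.18), and the claudin gene Cldn4 by 1.65 ± 0.18. Spint2, encoding a serine protease inhibitor, took the most reads of the list and fell by 0.60 ± 0.18; that call was lost after rescaling without the 20 highest genes and without any 1 of 4 libraries (E19 replicates 2 and 3, postnatal replicates 2 and 3). Ovol1 (6.91 ± 1.04 and 5.74 ± 2.99) and Prss8 (52.3 ± 1.62 and 36.8 ± 15.2) did not pass.

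Other keratins and the proteins that anchor keratin filaments were mostly uncalled. Of 14 tested, 1 rose, 2 fell and 11 did not pass, with a median change of 0.09, beside 30.0% of all genes called higher and 33.1% lower. The balance turned with the scaling: 0 rose and 4 fell on total reads, and 5 rose and 1 fell after rescaling without the 20 highest genes. Dsp, encoding the desmosomal linker desmoplakin, fell from 425 ± 8.58 to 188 ± 59.4 scaled CPM (-1.22 ± 0.20). The plakophilin gene Pkp1, at 2 to 57 reads, fell from 1.31 ± 0.378 to 0.365 ± 0.229 (-0.76 ± 0.20). It lay near the filter and was tested in 15 of 21 alternatives. The 1 that rose was Ppl, encoding the linker periplakin (0.48 ± 0.13), named after its values were seen; its call was lost on total reads and without postnatal replicate 2. Of 17 further keratin genes of the list in the table, Krt10, Krt17 and Krt80 were the only ones that passed the filter, and none of these was called. Krt20, a type I keratin counted in the duct list and singled out after its values were seen, fell from 70.2 ± 3.51 to 9.84 ± 4.16 (-2.78 ± 0.23; limma adjusted p = 7.50e-05), more than any keratin among the members. No other mucin reached the filter. Muc4, the one with the most reads, stood at 0.678 to 1.11 scaled CPM before and 0.101 to 0.275 after birth. Muc13, named after its values were seen, went the other way, from 0.216 to 0.484 before to 0.759 to 0.956 after birth.

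Of 16 tested genes of duct fluid secretion, 5 rose, 4 fell and 7 did not pass (median 0.10), shares near the 30.0% higher and 33.1% lower of all genes. After rescaling without the 20 highest genes 6 rose and 2 fell. Sctr, the receptor for secretin, the hormone that starts bicarbonate secretion, stood at 4.82, 5.78 and 4.32 scaled CPM in the fetal and 55.4, 34.2 and 19.6 in the postnatal libraries. It rose by 2.54 ± 0.33 (limma adjusted p = 4.39e-04) without overlap. Aqp1, a water channel gene that endothelium also expresses, rose from 33.4 ± 12.3 to 124 ± 30.6 (1.89 ± 0.29), in libraries where all 5 tested endothelial markers rose and their sum went from 154 to 243 before to 374 to 659 after birth; their part was not tested. Slc12a2, the sodium, potassium and chloride cotransporter gene, took the most reads of the list and fell from 506 ± 69.9 to 180 ± 39.8 (-1.50 ± 0.18). The other called genes, named after their values were seen, were Ano1 (1.03), Ca12 (1.07) and P2ry2 (1.17), which rose, and Clcn2 (-1.20), Slc4a4 (-0.76) and Slc9a3r1 (-0.57), which fell. The Ca12 change was 0.71 without postnatal replicate 1, and its call was lost without E19 replicate 1 and without E19 replicate 3. The Slc4a4 call ended in 3 of 21 alternatives, and the Slc9a3r1 call after rescaling without the 20 highest genes.

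Among 22 other tested genes of duct epithelium, 10 rose, 9 fell and 3 did not pass, with a median of -0.01, beside the same 30.0% higher and 33.1% lower of all genes. Tff2, a secreted trefoil peptide gene, stood at 3.72, 13.7 and 3.82 scaled CPM in the fetal and 1025, 434 and 422 in the postnatal libraries, a rise of 6.37 ± 0.50 (limma adjusted p = 5.74e-05). Clu, encoding the secreted chaperone clusterin, took the most reads and rose by 1.86 ± 0.24. Tspan1, a tetraspanin gene, fell from 67.0 ± 8.38 to 7.63 ± 3.76 (-3.05 ± 0.27). Postnatal replicate 1, with the highest acinar sum and the label of week 2, was the highest postnatal library for all 3.

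Of 18 tested regulators of pancreatic progenitors, 2 rose, 7 fell and 9 did not pass (median -0.16), the share that fell being near the 33.1% of all genes. On total reads 0 rose and 7 fell, with the labelled week as a covariate 4 rose, and 1 rose without E19 replicate 2, E19 replicate 3 or postnatal replicate 2. Ptf1a, which directs progenitors and later acinar cells, fell from 257 ± 78.0 to 28.6 ± 12.6 scaled CPM (-3.16 ± 0.31). The homeobox gene Nkx6-2 fell from 3.48 ± 1.55 to 0.330 ± 0.107 (-1.70 ± 0.25), a low level at which the added 1 understates the change. Nr5a2, a nuclear receptor gene of acinar cells, fell from 215 ± 36.1 to 75.0 ± 39.2 (-1.62 ± 0.33). The 2 that rose were Mnx1 (1.03 ± 0.20) and Pdx1 (0.45 ± 0.16), factors that islet cells keep, named after their values were seen; the Pdx1 call ended in 7 of 21 alternatives.

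Genes of the osteopontin receptors and of its phosphoprotein family were mostly uncalled: of 10 tested, 2 rose, 1 fell and 7 did not pass (median 0.18), beside 30.0% higher and 33.1% lower of all genes. The count that rose was 1 on total reads (2 fell), 4 with upper-quartile scaling, with DESeq2 and without postnatal replicate 1, and 5 after rescaling without the 20 highest genes. Cd44, a hyaluronan and osteopontin receptor gene, rose from 8.42 ± 3.09 to 35.4 ± 8.65 scaled CPM (1.98 ± 0.29), and the integrin gene Itgav, named after its values were seen, by 0.68 ± 0.14, a call that was lost on total reads. Ibsp, encoding bone sialoprotein, fell by 1.19 ± 0.19, and the integrin gene Itgb1, with the most reads, stood at 911 ± 61.9 and 776 ± 80.6 without passing.

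**Figure D4:**
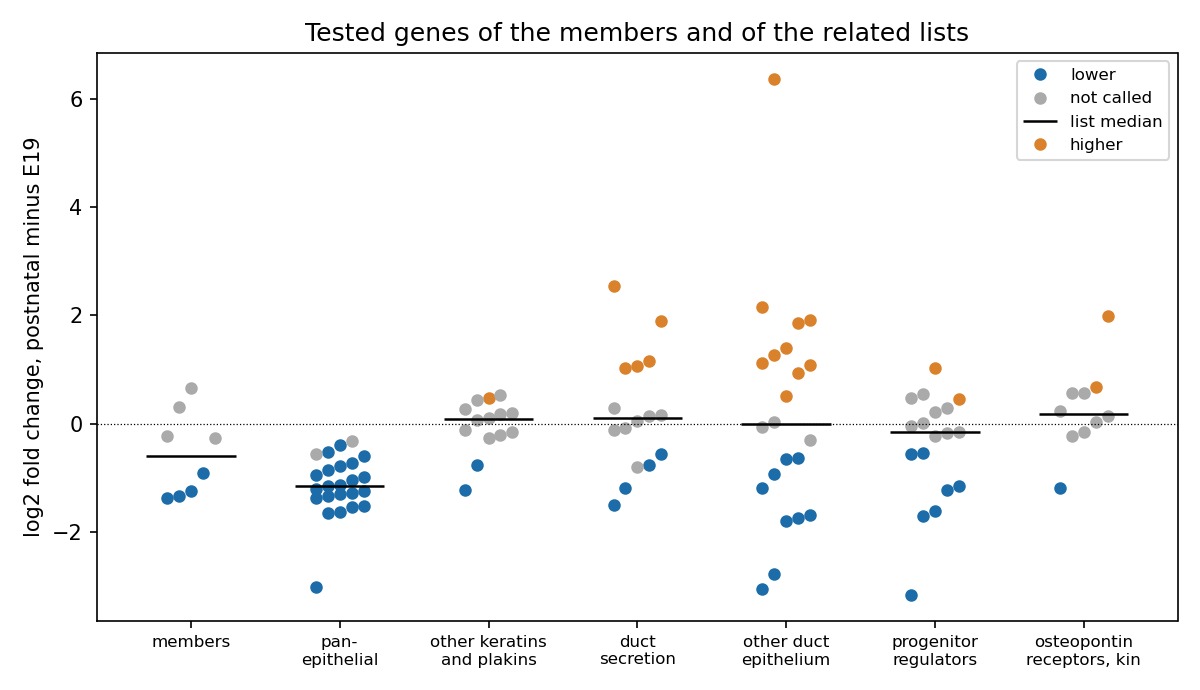
Change after birth (log2 fold change, postnatal minus E19) of each tested gene, by list; orange marks genes called higher, blue lower and grey not called, and black lines are list medians. The pan-epithelial list lies almost wholly below 0 with a median of -1.14. The duct secretion list reaches from -1.50 to 2.54, and the other duct epithelium list from -3.05 to 6.37.

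The summed markers of mesothelium and of mesenchyme did not overlap between the groups, whereas those of Schwann cells did. Their counts stand beside 30.0% of all genes called higher and 33.1% lower. Mesothelial markers, 7 of 8 in the table and all with reads in every library, summed to 123 to 187 scaled CPM before and 556 to 910 after birth, and 5 of 7 rose, led in level by Msln and Gpm6a. Their postnatal sums were 564, 556 and 910 in replicates 1, 2 and 3, highest where Krt7 was highest (89.7). Postnatal replicate 3 is also the one labelled week 4, so age and mesothelium cannot be told apart there. The part of mesothelium in the Krt7 values was not tested. Mesenchymal markers rose in 7 of 8 cases and summed to 1786 to 2639 and 7004 to 12384, led by Col3a1 and Col1a1. Schwann cell markers, of which 3 rose and 1 fell of 5 tested, summed to 58.3 to 77.5 and 52.1 to 81.2.

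Among the remaining marker lists, 9 of 13 acinar genes rose, led in level by Ctrb1 and Cel, and 9 of 10 endocrine genes rose, led by Gcg and Ins1. Over all genes tested, 30.0% were called higher. Liver markers, led by Alb and Afp, fell in 2 of 6 tested cases, a share near the 33.1% of all genes called lower. Erythroid markers, led by Hba-a1 and Hba-a2, fell in 6 of 6 and summed to 3047 to 10396 before and 980 to 1541 after birth, with Hbe1 at 0 reads in postnatal replicate 1. Endothelial markers were led by Tek and Tie1, and macrophage markers by Lyz2 and Mrc1. Without E19 replicate 2 and postnatal replicate 1, the 4 falls of Krt8 (-1.42), Krt18 (-1.16), Krt19 (-1.43) and Muc1 (-1.78) were all called, and Onecut1 was the fifth gene called lower.

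By a search over 9176 other genes with a mean of at least 10 scaled CPM, the log2 profile closest to that of Krt19 over the 6 libraries, by Euclidean distance after centring, was that of the phospholipase C gene Plch2 (distance 0.23), followed by Sinhcaf (0.25). Plch2 fell from 19.6 ± 4.34 to 6.06 ± 0.178 scaled CPM and, like Krt19, was highest in E19 replicate 1. Spp1 lay closest to Aldh1a7 (0.22), an aldehyde dehydrogenase gene (26.7 scaled CPM in postnatal replicate 1 and 12.6 in postnatal replicate 2), and to RT1-N2 (0.26). Sox9, compared with 9177 genes, lay closest to Foxp4 (0.40) and Shank2 (0.41), both highest in E19 replicate 1 and lowest in postnatal replicate 3. With 6 libraries these likenesses are descriptions.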

How the data were processed

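Libraries were made from total RNA of freshly isolated islets with a stranded kit that depletes ribosomal RNA, per the labels' protocols. The authors deposited 1 table of a scaled expression signal per gene. TopHat2 2.0.8b and edgeR 3.30.3 are named without roles, per the submitters' processing notes; for genome build, annotation, counter and strand setting, nothing is stated, and reads of overlapping or antisense genes cannot be told apart. Each deposited signal was a whole number of reads times a constant per library (100% of values within 0.001 reads), and these constants matched CPM of TMM-adjusted library sizes (factors 0.677 to 1.25). A row without a gene name held at most 9 reads and was left out.

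The main test was limma 3.58.1 on log2(value + 1) (R 4.3.3; trend, not robust; group only; two-sided) over genes at 1 or more in at least 3 libraries, with Benjamini-Hochberg adjustment over all of them. Fold changes on this scale understate those of low genes. Ratios used a two-sided exact permutation test over libraries, on log2 ratios of value + 1. Alternatives were other pseudocounts (0.1, 0.5, 5), filters, 4 scalings, a robust trend, a replicate block, a week covariate, libraries left out, and edgeR 4.0.16 (8128 genes called) and DESeq2 1.42.0 (8366) on recovered reads, against 8152.

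The members and gene lists were chosen with earlier results of these data known. Of 238 entries in 7 related and 9 marker lists, 207 were matched by symbol or by older symbols in RefSeq (GRCr8). Named genes were the members, in each related list the 2 largest called changes and the gene with the most reads, the 2 most abundant of each marker list, and the closest profiles to 3 members; exceptions are stated, and some items are not reported here. The other mucin list had no gene past the filter.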

Additional observations from a re-analysis of the deposited data

How the results depend on the processing

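The falls of Krt8, Krt18, Krt19 and Muc1 were called under all 21 alternatives that tested single genes. The count of members called higher, 0 in the report, was 2 after rescaling without the 20 highest genes and with the labelled week as a covariate, and 1 with DESeq2; leaving out 1 library gave 0 to 1, the 1 without postnatal replicate 1. The members' median change of -0.59 was -0.93 on total reads and -0.98 without E19 replicate 2 and postnatal replicate 1, and -0.37 to -0.81 with 1 library left out. Total-read scaling moved the median of all genes from -0.03 to -0.36 (25.9% of calls higher) and the rescaling without the 20 highest genes to 0.20 (61.2% higher, against 47.5%); upper-quartile scaling moved it to 0.08. On total reads Krt7 turned to -0.043. With 1 library left out, Sox9 ranged from -0.56 to 0.10 and Onecut1 from -0.49 to 0.10; Sox9 turned to 0.10 without E19 replicate 1 and to 0.08 without postnatal replicate 3. The ratio of Krt19 to Epcam was 0.027 without both libraries and -0.28 to 0.015 with 1 left out, that of Krt8 to Epcam -0.0071 with a pseudocount of 5 and -0.036 to 0.061, and that of Muc1 to Epcam -0.42 to 0.21. The cause of these shifts was not tested.

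Deviations of same-numbered libraries from their group means had r across genes of -0.21, 0.10 and -0.25. With 3 libraries per group, each centred on its own group mean, these values cannot decide whether the numbers pair libraries. With the replicate block 0 members were higher and 4 lower, as without it, and 7426 genes were called in place of 8152; no library correlated best with its own number.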
